A study of Homo sapiens with 2 samples.

Results

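A microRNA (miRNA) hairpin is cut into a duplex of 2 short strands, one from its 5′ side (5p) and one from its 3′ side (3p). The strand with fewer reads, here called the minor arm and often the passenger strand, was described for 70 hairpins of the human breast cancer cell line BT549, as 70 of the 407 rows of the count table. Of 75 hairpins with a name number below 1000 and a row for each arm, the arm with the lower sum of reads over both libraries was taken, 1 tie was left out (miR-181c), and miR-9, miR-17, miR-92b and miR-424 were dropped. The members were thus chosen by their summed reads, and that a minor arm lies below its partner is no finding. The closest pair inside the rule was miR-30e, with 75 and 32 reads on the 5p arm in the pulldown and control libraries and 78 and 40 on the 3p arm, and the tie just outside it was miR-181c, with 0 and 2 reads on the 5p arm and 2 and 0 on the 3p arm. On the name limit, miR-873 was inside and miR-1307, with 28 and 21 reads on its 5p arm and 130 and 51 on its 3p arm, was outside. Another 14 rows, such as miR-181a-2-3p (117 and 44 reads) and miR-30c-2-3p (76 and 40), carry a locus number that matches no partner name and were not members.

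Both libraries came from BT549 cells overexpressing SNHG15-MS2, the long non-coding RNA SNHG15 joined to loops that the coat protein of phage MS2 (MCP) recognises. Cell lysate spent 5 h on amylose resin loaded with MBP-MCP, in which MCP is joined to maltose binding protein (the pulldown library), or on amylose resin without that protein (the control library), to find miRNAs associated with SNHG15. With a single library (1) per resin, differences below have no replicate check, and no p-value was computed. All intervals are exact 95% intervals for counting error only. No library of MBP-MCP resin without the tagged RNA was analysed here, so binding to the protein and binding to SNHG15 cannot be told apart. Neither the promoter of the construct nor whether the line is 1 clone is stated in the labels. The pulldown library held 202560 reads and the control library 111414. Of the markers listed for mesenchymal or basal breast cancer lines, 7 of 7 were in the table (22560 and 13258 reads in sum). Of the epithelial markers 1 of 6 was, miR-200a-3p, with 1 read in each library. Markers of other tissues were present too: neuronal 4 of 4, liver 1 of 1, erythroid 2 of 3, leukocyte 2 of 4 and muscle 1 of 4. Presence in the table alone thus does not identify the cell type.

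After the enzyme Dicer has cut the hairpin, an Argonaute protein takes up the duplex, keeps one strand as the guide and lets the other go, and the released strand is usually degraded. The guide pairs with target RNAs mainly through its seed, bases 2 to 8. Argonaute prefers a strand whose first base is U, or A, and whose 5′ end is the less firmly paired one. Some hairpins give active miRNAs from both arms, and the 2 arms have different seeds and so different targets.

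The sequences below are those of the hairpins on which the results turn, minor arm first, with the seed in capitals (RefSeq mature miRNAs, GRCh38.p14). The miR-30a and miR-30e arms are shown because the same pair of seeds has changed places between minor and major arm. Those of miR-27a and miR-378a are shown because the interval of their arm odds ratio, given below, excluded 1. These intervals are not adjusted for the number of hairpins, and miR-27a-5p reached 20 reads only in the pulldown library.
miR-30a-3p: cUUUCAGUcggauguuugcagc
miR-30a-5p: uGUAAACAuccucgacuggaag
miR-30e-5p: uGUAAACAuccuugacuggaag
miR-30e-3p: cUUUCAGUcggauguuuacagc
miR-27a-5p: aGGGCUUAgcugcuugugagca
miR-27a-3p: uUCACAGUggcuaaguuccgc
miR-378a-5p: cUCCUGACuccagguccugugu
miR-378a-3p: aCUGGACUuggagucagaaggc
The minor arm of miR-30a and the major arm of miR-30e carry the seed UUUCAGU, while the major arm of miR-30a and the minor arm of miR-30e carry GUAAACA. How reads that fit both hairpins were shared out is not stated, so the split between such near-identical arms is uncertain. The hairpins lie on chromosome 6, 71403551 to 71403621, minus strand (MIR30A, in introns of LINC00472 and AL136164.2), and on chromosome 1, 40754355 to 40754446, plus strand (MIR30E, in an intron of NFYC). MIR27A lies on chromosome 19, 13836440 to 13836517, minus strand, in an exon of the antisense transcript AC020916.1, and MIR378A on chromosome 5, 149732825 to 149732890, plus strand, in an intron of PPARGC1B. Host genes are from GENCODE 29.

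Minor arms were a small part of both libraries. In sum they held 1587 pulldown reads (0.783% of all miRNA reads) and 947 control reads (0.850%), against 113667 and 62049 for their major arms. The sum is led by miR-30a-3p, from a hairpin known to give active miRNAs on both sides, which alone gave 31.7% of all minor-arm reads; the 5 most abundant members gave 54.1%. Most members had few reads: the median member had 10.5 reads over both libraries, and the range was 2 to 804. Of the 70 members, 8 were at 0 in the pulldown and 9 in the control, and 16 had at least 20 reads in a library.

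**Figure D1:**
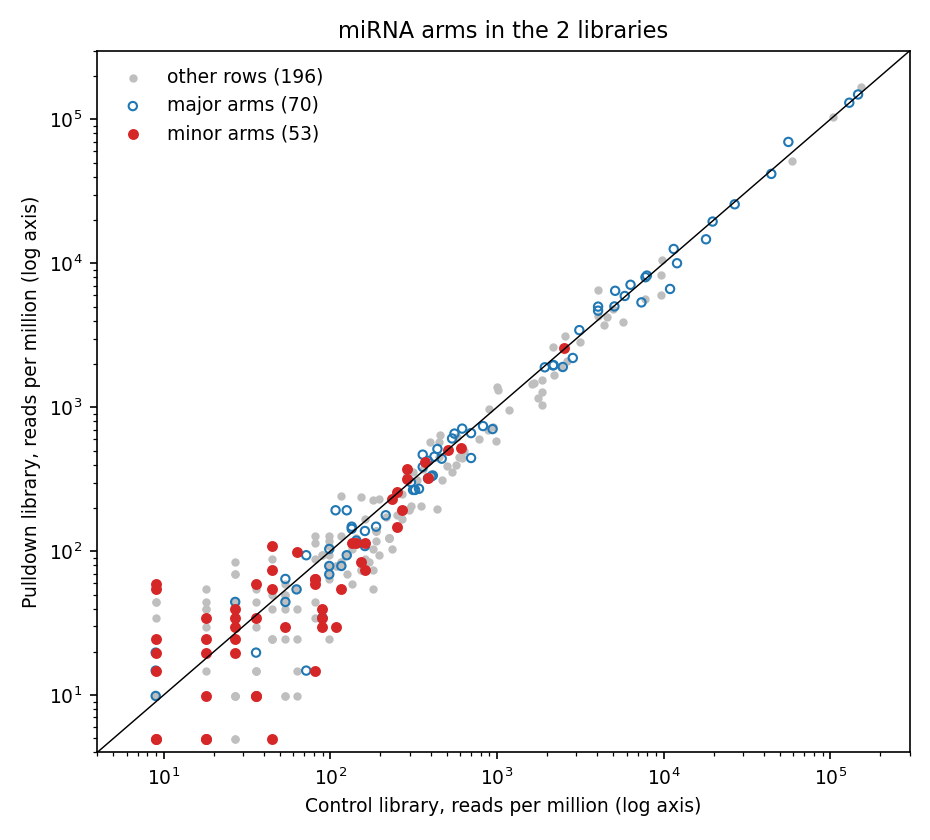
RPM, each row's reads scaled to the library total, in the pulldown library (vertical, log axis) against the control library (horizontal, log axis) for each row with reads in both, with 53 minor arms, 70 major arms and 196 other rows. The line marks equal values, and 88 rows with 0 reads in a library are left out. Minor arms other than miR-30a-3p lie in the lower left, where 1 read is a visible step and the scatter about the line is wide.

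The most abundant members were close to the line. miR-30a-3p had 524 pulldown and 280 control reads, a ratio of 1.03 in RPM (interval 0.889 to 1.19). miR-99b-3p, from the hairpin of a miRNA that restrains mTOR, stood at 523 and 610 RPM, the latter from 68 reads (ratio 0.857, 0.626 to 1.18). miR-126-5p, the lesser arm of an endothelial miRNA in EGFL7 that is itself active, had 103 and 57 reads (ratio 0.994, 0.712 to 1.40). All 3 intervals include 1, so with total reads as the scale neither library stood above the other by more than counting error. With TMM or DESeq2 factors (below) the interval of miR-30a-3p lay above 1.

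The next members were similar in this respect. miR-10a-3p, from the HOXB cluster, had 85 and 41 reads (ratio 1.14, 0.777 to 1.70). miR-361-3p, from an intron of CHM, had 65 and 43 reads (ratio 0.831, 0.557 to 1.25), and miR-30e-5p 75 and 32 (ratio 1.29, 0.842 to 2.02). miR-15b-3p, the partner of a miRNA that represses BCL2, had 64 and 32 reads (ratio 1.10, 0.709 to 1.74). Again each interval spans 1. miR-423-3p had 52 and 28 reads (ratio 1.02), and miR-21-3p, the lesser arm of the oncogenic miR-21, 47 and 26 (ratio 0.994).

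Below 40 reads in a library the intervals widened. let-7d-3p had 39 and 30 reads (ratio 0.715, 0.433 to 1.19) and miR-378a-5p 30 and 28 (ratio 0.589, 0.340 to 1.02), the lowest ratio among the 16. miR-100-3p had 23 and 18 reads (0.703), miR-93-3p 23 and 16 (0.791) and miR-425-3p 23 and 15 (0.843). The highest ratios were those of the least read: miR-25-5p, from the miR-106b-25 cluster in MCM7, with 20 and 7 reads (1.57, 0.638 to 4.40), and miR-27a-5p with 22 and 5 (2.42, 0.894 to 8.18). Of the 16, 5 reached 20 reads only in the pulldown library, these 2 among them, and 0 only in the control library. The 5 also include miR-100-3p, miR-93-3p and miR-425-3p, whose ratios were below 1. At a given sum of reads, the minimum favours members with a high ratio, since the pulldown library is the deeper one.

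With total reads as the scale, 0 of the 16 intervals lay above 1 and 0 below, where over all 161 rows with 20 reads 11.2% lay above and 23.6% below. The minor arms have fewer reads and wider intervals than most of those rows. The call depends on the scale: TMM factors raise every log2 ratio by 0.20 and put 2 intervals above 1 (miR-30a-3p and miR-27a-5p; 22.4% of all rows), and DESeq2 size factors raise it by 0.28 and put 3 above 1 (miR-30e-5p as well; 27.3% of all rows). Against the median ratio of all 161 rows, 0.897, 0 intervals lay above and 0 below, beside 19.3% and 11.2% of all rows. By the rule of at least 2-fold, 1 member was higher in the pulldown library, miR-27a-5p (2.48% of all rows), and 0 were lower (3.11% of all rows). With a prior count of 5, 0 were at least 2-fold higher. With 30 reads over both libraries as the minimum, 0 were at least 2-fold higher and 1 was lower, let-7i-3p, whose interval lay below 1 (ratio 0.458, 0.215 to 0.963).

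The median log2 ratio of the 16 was −0.01, that of the 55 major arms with 20 reads −0.02, and that of all 161 rows −0.16. It turned positive under TMM factors, DESeq2 size factors and totals without the 5 most abundant miRNAs, to between 0.11 and 0.27. A minimum of 30 reads over both libraries, in place of 20 in a library, was chosen after seeing the data. It counts a read of either library alike, with no correction for the deeper pulldown library. With it, 16 members passed and their median was −0.23. Then miR-25-5p and miR-27a-5p dropped out, and miR-532-3p (17 and 17 reads) and let-7i-3p (15 and 18) came in.

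**Figure D2:**
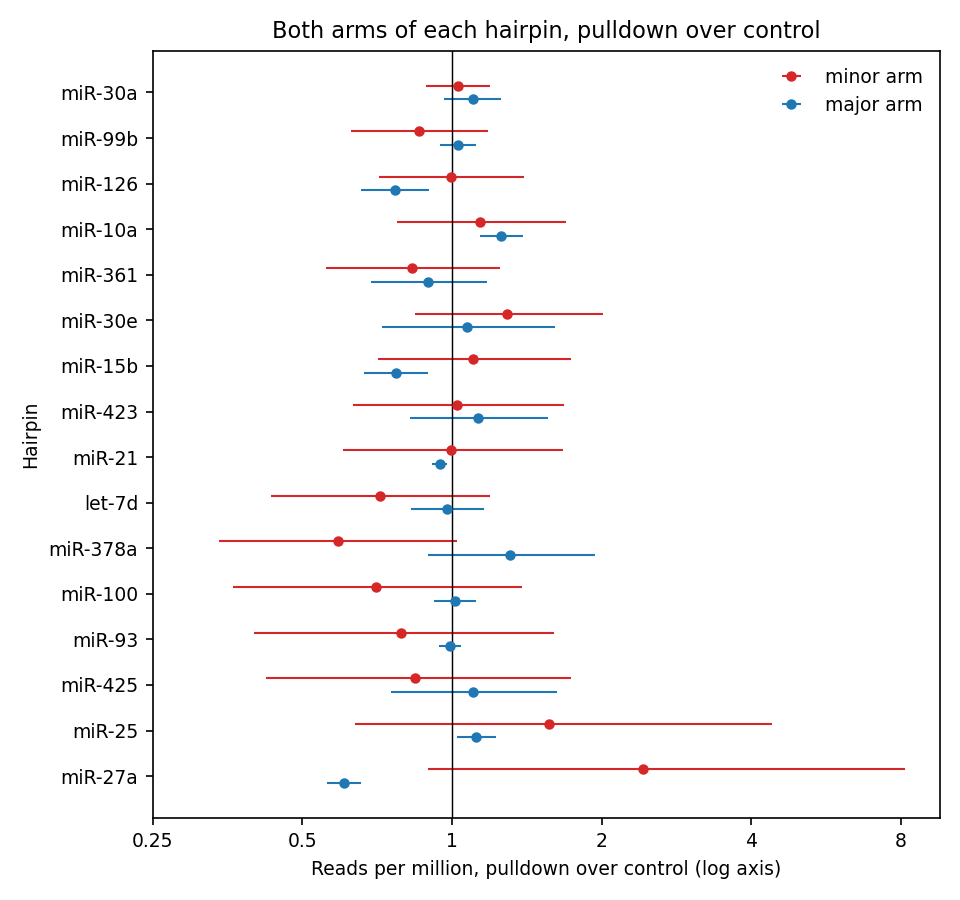
Ratio of RPM, pulldown over control (log axis), for the minor and the major arm of the 16 hairpins with at least 20 minor-arm reads in a library, in order of minor-arm reads. Points are ratios and bars exact 95% intervals for counting error in 1 library each. The minor arm lies to the left of the major arm for miR-378a (0.589 against 1.31) and to the right of it for miR-27a (2.42 against 0.607).

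Within a hairpin, the share of reads on the minor arm does not depend on how the libraries are scaled, because the scale cancels between the arms. Over all 70 hairpins 1.38% of pulldown reads (1.31 to 1.45) and 1.5% of control reads (1.41 to 1.60) were on the minor arm, or 0.932% and 1.07% without miR-30a. Among the 42 hairpins with at least 100 reads in the pair the median was 1.96%, with 15 under 1% and 5 over 25%.

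Among those 42 hairpins, the 5 highest shares were those of miR-30e (49.0% pulldown, 44.4% control), miR-30a (43.0% and 44.6%), miR-361 (30.2% and 31.9%), miR-423 (29.7% and 31.8%) and miR-378a (24% and 41.2%). For miR-30e the intervals of both libraries, 40.9 to 57.2 and 32.7 to 56.6, include 50%, so its lower arm is not fixed by these reads. At the other end, miR-29a-5p had 1 read in each library against 2977 and 2003 for miR-29a-3p, a repressor of collagen genes. The other 4 lowest shares of the 42 were those of let-7a, let-7b, let-7i and let-7e, between 0.0451% and 0.117% over both libraries. The let-7 family blocks RAS and MYC, and its 5p arms were among the most abundant miRNAs of the table, so that let-7a had 2217 reads on the 5p arm for each read on the 3p arm.

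**Figure D3:**
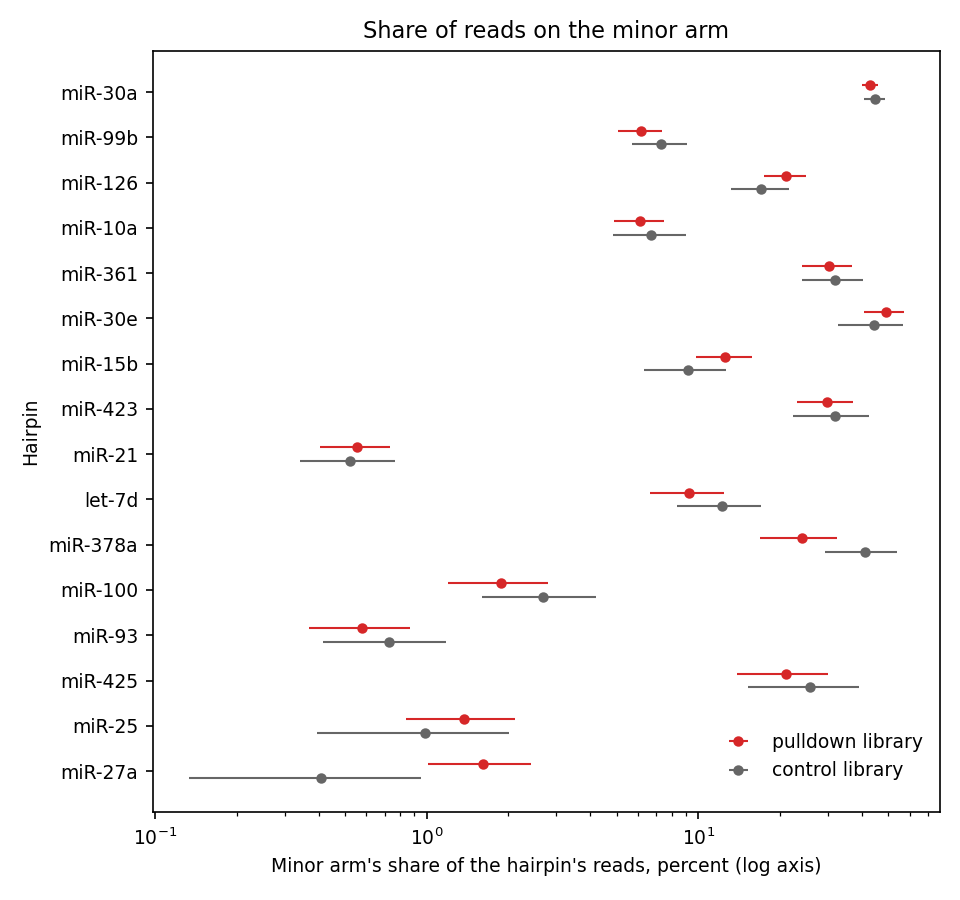
Share of the hairpin's reads on the minor arm, in percent (log axis), in the pulldown and control libraries for the same 16 hairpins. Points are shares and bars exact 95% intervals. The shares run from 0.408% for miR-27a in the control library to 49.0% for miR-30e in the pulldown library, and the miR-378a shares are 24% and 41.2%.

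Of the 16 hairpins, 14 had an odds ratio of minor to major arm, pulldown over control, whose interval included 1, and 1 lay above 1 and 1 below. Over all 19 paired hairpins with 20 minor-arm reads in a library, which include these 16, 5.26% lay above and 5.26% below. The 16 intervals are not adjusted for their number. For miR-27a the pulldown held 22 minor-arm reads against 1345 on the major arm, and the control 5 against 1219, shares of 1.61% (1.01 to 2.43) and 0.408% (0.133 to 0.95). Its odds ratio was 3.99 (1.47 to 13.5). The major arm, miR-27a-3p, an adipogenesis and cell cycle regulator from the miR-23a/27a/24-2 cluster, was 0.607 times the control (0.561 to 0.656). The minor arm was 2.42 times the control, with an interval that includes 1 (0.894 to 8.18). Only the point ratios of the arms thus lay on opposite sides of equality. The result rests on 5 control reads, and with 30 reads over both libraries as the minimum the hairpin was not among those compared.

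miR-378a, from a hairpin in the gene of the metabolic co-activator PGC-1β, lay the other way. Its 5p arm had 30 and 28 reads and its 3p arm 95 and 40, shares of 24% (16.8 to 32.5) and 41.2% (29.4 to 53.8). The odds ratio was 0.451 (0.228 to 0.895). Neither arm's own ratio had an interval clear of 1 (0.589 for the 5p arm, 1.31 for the 3p arm), and only their relation to each other did. miR-15b and miR-126 had odds ratios of 1.43 (0.894 to 2.31) and 1.30 (0.894 to 1.89), with major arms at 0.771 and 0.766 times the control. For these 2 hairpins a difference between the arms was not detectable at this depth.

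The 54 members with fewer than 20 reads in both libraries held 20.0% of all minor-arm reads, with 286 in the pulldown and a summed ratio of 0.712 (0.595 to 0.852). The 170 other named miRNAs under 20 reads had a summed ratio of 0.827 (0.744 to 0.921). An upper limit on reads takes out rows that are high in the deeper pulldown library, which lowers both sums. How much of either ratio, or of the gap between them, comes from this limit was not tested. Singly, 48 of the 54 intervals included 1, 1 lay above (miR-365b-5p) and 5 below. That count was not made for the other rows under 20 reads, so it is no result about minor arms.

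Among these low members are all 5 of the 70 members that the authors' deposited table calls different; of all 407 rows it calls 6.39%. The 2 called higher were miR-301a-5p, with 12 and 1 reads, and miR-365b-5p, with 9 and 0. With its 0 set to a floor of 3 control reads, miR-365b-5p was 1.65-fold higher. That floor leaves out counting error, and the exact interval of its ratio began at 1.09. Of all rows 3.93% are called higher. The interval of miR-301a-5p, 0.977 to 282, includes 1. The authors' deposited table gives them adjusted p-values of 0.475 and 0.293 (0.0443 and 0.0173 before adjustment), which rest on a dispersion the headers do not state.

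The 3 called lower, where 2.46% of all rows are, were miR-22-5p, miR-130b-5p and miR-191-3p. miR-22-5p had 0 and 8 reads, 4.85-fold lower with its 0 set to 3 reads and at least 3.10-fold lower by the exact interval. Its major arm, a tumour suppressor in many tissues, had a ratio of 0.945 with 78 control reads. miR-130b-5p had 3 and 9 reads and was 5.45-fold lower (1.36 to 31.3), with 30 and 15 on the major arm. miR-191-3p had 6 and 12 reads and was 3.64-fold lower (1.26 to 11.8), with 5211 and 2978 on the major arm. In the authors' deposited table the adjusted p-values of these 3 are 0.126, 0.389 and 0.450. Of the 5, 4 had an arm odds ratio whose interval excluded 1, miR-365b being the exception. Among all 54 members under 20 reads, which include these, 1 such interval lay above 1 and 6 below. No share over other hairpins under 20 minor-arm reads was computed, so this count is a description only. The odds ratio reuses the minor-arm reads behind the authors' call, so it is no separate support. All 5 rest on at most 12 minor-arm reads in a library.

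Arms changed order between the libraries in 6 hairpins, all with few reads (named because of these values). miR-132-5p had 11 reads against 9 on its 3p arm in the pulldown library but 1 against 6 in the control library. miR-34c-3p, of a p53 target, had 4 against 3 and 0 against 8. miR-374a-3p had 11 against 39 in the pulldown library but 13 against 12 in the control library, an odds ratio of 0.260 (0.0820 to 0.825). The other three were miR-32, miR-144 and miR-330, each with at most 5 reads on the minor arm in a library.

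By family, members were few, and single reads decide many of the signs. For comparison, over all 161 rows with 20 reads in a library, 64 log2 ratios lay above 0 and 97 below. Among members under 20 reads, 23 lay above 0 and 31 below. In the let-7 family 6 hairpins were members, all with a 3p minor arm, and 4 of their log2 ratios lay below 0 and 2 above, also under the other scalings. let-7d-3p was the most abundant (above), let-7i-3p had 15 and 18 reads and was 2.18-fold lower (1.04 to 4.65), let-7a-3p had 12 and 9 and let-7b-3p 12 and 4. In sum let-7 minor arms had 82 and 63 reads (ratio 0.716, 0.509 to 1.01), while their 5p arms together stood at 1.05. The summed odds ratio was 0.682 (0.485 to 0.963), but 0.760 (0.513 to 1.14) without let-7i-3p and 0.683 (0.424 to 1.11) without let-7d-3p, so the interval includes 1 once either is left out. let-7a-3p and let-7b-3p share the seed UAUACAA, and let-7a-5p comes from more hairpins than let-7a-3p, which lowers the share given for let-7a.

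The next groups by size had mixed signs. In the miR-17-92 and paralogue clusters, known for driving proliferation, 4 minor arms were measured, and 3 of the 4 log2 ratios were above 0 (66 and 31 reads in sum, ratio 1.17, 0.753 to 1.86). One of them, miR-106b-5p, with 15 and 5 reads, carries the seed AAAGUGC of miR-17-5p, miR-20a-5p and miR-93-5p, and its 3p arm had 104 and 49. In the miR-30 family 3 of 4 were above 0 (603 and 313 reads, ratio 1.06, 0.923 to 1.22), and miR-30d-3p and miR-30b-3p had at most 3 reads in a library.

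In the miR-23/27/24 clusters 2 of 4 were above 0: miR-27a-5p and miR-23b-5p (5 and 1 reads), against miR-23a-5p (8 and 10) and miR-27b-5p (2 and 2). In the miR-99, miR-100, miR-125 and miR-10 group 1 of 4 was above 0, miR-10a-3p, and 3 of 4 with DESeq2 size factors. In the miR-130, miR-301 and miR-454 family 2 of 3 were above 0, with miR-454-5p at 6 and 3 reads. In the miR-15/16 family 2 of 3 were, with miR-503-3p at 2 and 0 and miR-195-3p at 0 and 2. Of the pair miR-191 and miR-425, from 1 transcript unit in DALRD3, 0 of 2 were above 0, and 1 of 2 with DESeq2 size factors. Single members were miR-181a-3p (2 and 4 reads) and miR-221-5p (4 and 3). No minor arm of the miR-148, miR-103, miR-26, miR-183, miR-200 or 14q32 lists was a member. Of 20 lesser arms described elsewhere as functional, 7 were minor arms here and 5, among them miR-28-3p and miR-193a-5p, were the major arm.

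The arms differed in sequence, a property the rule did not use. RefSeq sequences were matched for 62 of the 70 minor arms, and for both arms of 58 hairpins. The first base was U in 11 of 58 minor arms (19%) and in 33 of their 58 major arms (56.9%), beside 36.8% of 2370 mature miRNAs in RefSeq outside chromosome 8. C came first in 34.5% of minor and 19% of major arms, and A in 32.8% and 17.2%. In 30 hairpins only the major arm began with U and in 8 only the minor arm. These 8, named for that reason, were miR-30e-5p, miR-106b-5p, miR-671-3p, miR-23b-5p, miR-574-5p, miR-144-3p, miR-330-5p and miR-500a-5p.

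**Figure D4:**
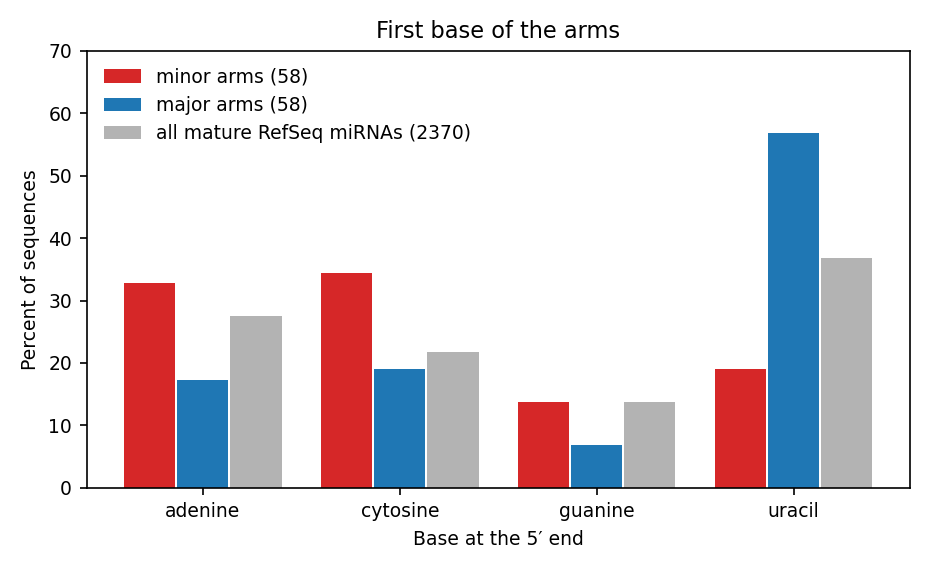
Percent of sequences that begin with each base, for the minor and the major arms of the 58 hairpins with both sequences and for 2370 mature RefSeq miRNAs. Uracil leads the major arms at 56.9% and stands at 19% in the minor arms, where cytosine and adenine lead.

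The share beginning with U was 18.2% of minor arms and 59.1% of major arms in the 22 hairpins with at least 20 major reads per minor read, and 19.4% and 55.6% in the other 36. The first 4 bases, a rough measure of how weakly the 5′ end pairs, held fewer A or U in the minor arm than in the major arm in 28 hairpins, the same number in 14 and more in 16 (means 1.91 ± 0.978 and 2.29 ± 0.859, SD over 58 arms). In miR-106b the minor arm had 4 and the major arm 0, the reverse of the common order. The GC content was higher in the minor arm in 35 hairpins and lower in 21. The 3p side was the minor one in 42 of the 70 hairpins and the 5p side in 28.

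The 62 minor arms had 60 different seeds and the 62 major arms with a sequence 50. Only let-7a-3p with let-7b-3p, and miR-23a-5p with miR-23b-5p (GGGUUCC), shared one among themselves, and 7 shared one with a row that was no member, such as miR-590-5p with miR-21-5p (AGCUUAU). Matches to the seed (its reverse complement, 7 bases, read on the transcript strand) were searched in a SNHG15 transcript of GENCODE 29 that is 982 bases long. The labels do not name the isoform in the construct. Of the 62 minor arms 4 had a match (6.45%), as did 1 of 62 major arms (1.61%) and 7.81% of the 2370 RefSeq miRNAs. The 4 were miR-378a-5p, miR-532-3p, miR-873-5p (13 and 9 reads) and miR-335-3p (4 and 1). The one with 20 reads, miR-378a-5p, is shown with its match at bases 797 to 803 in capitals, a match found in 7 of 10 annotated SNHG15 transcripts.
SNHG15 at miR-378a-5p: gcccttctggaaggaGTCAGGAa
The ratio of miR-378a-5p was 0.589 and that of miR-532-3p 0.550 (0.264 to 1.15), both with intervals that include 1. A match of these letters is a description and does not show binding.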

How the data were processed

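The authors deposited raw read counts per miRNA for 1 pulldown and 1 control library, prepared, per the labels' protocols, with a QIAseq miRNA kit; the submitters' processing notes name GRCh38 and no source here names an aligner or says how molecular identifiers were used. The deposited RPM values (headed Tpm; reads scaled to the library total) match the counts within 0.0484%. Log2 fold changes and p-values, raw and adjusted, were taken as deposited by the authors. The lowest sum of a listed row is 2 reads. There were 0 columns of other samples.

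The members and lists were chosen with earlier results of these data known. RPM ratios used the table's total reads, log2 ratios 0.5 added reads, in proportion to depth, ratio intervals the Clopper-Pearson method, and arm odds ratios the exact conditional interval (scipy 1.17.1). No p-value was computed with 1 library per group. In the main setting, only members with 20 reads in a library were counted as at least 2-fold higher or lower. Folds of members with fewer reads are given as description, and a 0 was set to 3 reads for a fold that leaves out counting error. Named were the 12 most abundant members, the 6 highest and 6 lowest ratios with 20 reads, those with an interval clear of 1, those the authors call, the 5 highest and 5 lowest shares, up to 3 per list, and their partners; others are marked as named for their values. TMM (edgeR 4.0.16) and DESeq2 1.42.0 factors, other minimums, folds and arm choices were alternatives. Intervals and calls were run on counts simulated with counting error only, which the intervals assume. That run checks the code and not variation between libraries. Its ratio intervals covered no row with a 0 or with fewer than 20 reads in both libraries.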

Additional observations from a re-analysis of the deposited data

How the results depend on the processing

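Depth limits most of these results, since 54 of 70 minor arms had fewer than 20 reads in both libraries. No paired analysis was possible because each group held 1 library, and for the same reason no library could be left out. The count of minor arms at least 2-fold higher in the pulldown, 1, became 3 with a minimum of 10 reads, 0 with 50, 14 with none, 2 at 1.5-fold and 0 with a prior count of 5; that of those lower, 0, became 6 with 10 reads, 20 with none, 1 at 1.5-fold and 1 with the dropped hairpins (miR-9-3p). Intervals above 1, 0 in number, became 2 with TMM factors, 3 with DESeq2 size factors and 1 with no minimum; those below, 0, became 2 with 10 reads, 5 with none and 1 with the dropped hairpins. Hairpins with a higher minor share in the pulldown, 1, became 2 with 10 reads, 0 with 50, 2 with none and 2 with the arm chosen by the control library alone; those with a lower share, 1, became 5, 0 and 7 at the same minimums. The median log2 ratio, −0.01, became 0.18 with TMM factors, 0.27 with DESeq2 size factors, 0.11 without the 5 most abundant miRNAs, −0.24 with 10 reads, 0.036 with 50, −0.23 with no minimum and −0.29 with zeros then set to 3 reads. With 30 reads over both libraries, chosen after seeing the data as was the last setting, the 6 counts in this order were 0, 1, 0, 1, 0 and 2, and the median −0.23. The summed minor shares fell from 1.38% to 0.932% and from 1.5% to 1.07% without miR-30a. Changes with the minimum follow from which members are counted. Those with another scale follow from a common factor on every ratio. Those with another fold, prior count, arm choice or set of hairpins follow from that setting. Why the scales differ was not tested. Of the 36 named log2 ratios, 2 changed sign with TMM factors, 5 with DESeq2 size factors, 2 without the 5 most abundant miRNAs and 0 with a prior count of 5.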
